A study of Homo sapiens with 12 samples.

Results

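The 9 genes described here are chemokines and feedback genes of nuclear factor kappa B (NF-kB), taken by symbol from the 25268 gene symbols of the deposited expression values. They are the chemokines CXCL10, CXCL11 and CCL5, the adhesion molecule ICAM1, the NF-kB subunits RELB and NFKB2, and the inhibitory or ubiquitin-related genes NFKBIA, TNFAIP3 and BIRC3. HEK293, an established human embryonic kidney cell line, was transiently transfected with 2 µg of pCMV6-HIS-HA-RBMX, which expresses the RNA-binding protein RBMX with a His-HA tag from a viral promoter, or with the mock empty vector. RNA was extracted 48 h later from 3 cultures per vector, and each culture gave 1 library of total RNA and 1 of polysomal RNA, 12 libraries in 4 groups. Control cells, whose genotype the labels give as wild type, thus also went through transfection, and no untransfected cells were analysed here. Cells of both vectors were treated with cycloheximide and lysed, so all 12 libraries share this treatment. The part of cycloheximide in the levels below was not tested. Lysates were cleared of nuclei and run on a sucrose gradient, in which mRNAs carrying several ribosomes sediment in the polysomal fractions. Total RNA was a pool of 20% of each fraction and therefore also holds polysomal RNA.

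NF-kB is a family of dimeric transcription factors that are held in the cytoplasm by inhibitor proteins and enter the nucleus once a kinase complex has marked the inhibitors for degradation. Among the genes they switch on are their own inhibitors and subunits, so that the response limits itself, and chemokines and adhesion molecules that draw leukocytes to a tissue. CXCL10, CXCL11 and CCL5 are also classical targets of interferons and of the interferon regulatory factors. HEK293 cells are widely used to study both pathways with reporter genes.

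Promoter sequences were taken from RefSeq (GRCh38.p14), as 300 bases around each listed start, for 7 of the 9 genes. CCL5 and RELB had no entry. NFKB2 had 3 listed starts and the other genes 1 each. Letters that fit the kB consensus, the DNA motif bound by NF-kB, were searched on both strands and occurred in 11.3% of all 35116 promoters listed. They occurred in the promoters of CXCL10, CXCL11, TNFAIP3, NFKBIA and BIRC3, and before all but the first start of NFKB2. None occurred in the window of ICAM1, which says only that these letters are not there. The core GAAANNGAAA of interferon response elements, searched on both strands in the same way, occurred in 3.57% of promoters and among the 7 genes in that of CXCL10. A listed start need not be the outer end of the gene position given further below, which came from another annotation. The windows of CXCL11, TNFAIP3 and NFKB2 lie inside those positions. The windows below show where such letters lie before listed starts of the chemokines and the feedback genes. Each has 30 bases from 5′ to 3′ on the strand of the gene, with the matching letters in capitals.
CXCL10, chr4:76023655-76023684, minus strand: gaggagcagaGGGAAATTCCgtaacttgga
CXCL10, chr4:76023600-76023629, minus strand: tctgcaacatGGGACTTCCCcaggaacagc
CXCL10, chr4:76023699-76023728, minus strand, interferon response core: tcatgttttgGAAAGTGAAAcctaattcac
CXCL11, chr4:76036127-76036156, minus strand: gactcaaagaGGGAAATTCCtgtgccataa
TNFAIP3, chr6:137867194-137867223, plus strand: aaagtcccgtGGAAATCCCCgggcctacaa
BIRC3, chr11:102317275-102317304, plus strand: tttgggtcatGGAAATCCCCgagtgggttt
NFKBIA, chr14:35404811-35404840, minus strand: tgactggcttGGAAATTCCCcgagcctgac
NFKB2, chr10:102395674-102395703, plus strand: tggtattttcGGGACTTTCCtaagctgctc

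The first windows of CXCL10 and CXCL11 hold the same matching letters, as do those of TNFAIP3 and BIRC3. In CXCL10 the matches to the kB consensus begin 177 and 122 bases before the start and the interferon response core begins 221 bases before it. The match in CXCL11 begins 76 bases before the start and that in NFKBIA 81 bases before it. In TNFAIP3 the match shown begins 55 bases before the start and another one 67 bases before it, and in BIRC3 the match shown begins 199 bases before the start and another one 135 bases before it. A match to these letters is not a measurement of binding, and no binding was measured in these libraries.

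Expression is given as FPKM, which divides the fragments of a gene by its transcript length and by the library's mapped fragments, so levels can be compared between genes. How many fragments each library held is unknown, and no interval that needs it is given. Each comparison used limma on log2(FPKM + 1) over the 14676 genes that averaged 0.5 FPKM or more in the 12 libraries. Differential expression means a Benjamini-Hochberg adjusted p up to 0.05 over all of these genes. All 9 genes passed the filter, but CXCL10, CXCL11 and ICAM1 lay below 0.5 FPKM on average in control cells and passed only through the RBMX libraries. Log2 fold changes on this scale understate the change of genes at such low levels, so the ratio of mean FPKM is given beside them.

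RBMX itself checked the labels. Its FPKM was 147, 145 and 108 in control total RNA and 1731, 2073 and 1460 in RBMX total RNA, and it was likewise higher in every RBMX polysomal library. All 8 marker genes of HEK293 passed the filter. Of 10 leukocyte markers 5 stayed under 0.1 FPKM in every library, PTPRC, the pan-leukocyte phosphatase, with at most 0.0209 among them, and none was at 0 in all 12. Their summed level was 1.64 to 2.36 FPKM in control total libraries and 1.91 to 3.05 in RBMX total libraries, most of it CD14. Of 8 endothelial and fibroblast markers 6 stayed under 0.1 FPKM, and the summed level was 3.45 to 5.58 in control total and 5.88 to 6.94 in RBMX total libraries, most of it COL1A1. Without overlap, 10.5% of all 25268 symbols were higher in RBMX total libraries and 8.71% in RBMX polysomal libraries. Among the 10 leukocyte markers these were 2 and 3, and among the 8 endothelial and fibroblast markers also 2 and 3. Of the 8 HEK293 markers 2 were higher in each fraction. The leukocyte markers were CSF1R and ITGAM in both fractions and CD14 in polysomal RNA. ITGAM, an integrin chain of myeloid cells, reached at most 0.551 FPKM and had ratios of means of 3.86 in total and 3.55 in polysomal RNA. CSF1R, a receptor of macrophages, reached at most 0.103 FPKM and had ratios of 6.95 and 2.19. The others were COL1A1 in both fractions (1.40 and 1.42), PECAM1 in total RNA, VWF and PDGFRB in polysomal RNA, and the keratin genes KRT8 and KRT18 in both. The ratios of KRT8, 1.32 in total and 1.39 in polysomal RNA, were 1.08 and 1.11 without control replicate 3, and those of KRT18, 1.29 and 1.32, were 1.12 and 1.13. Of the markers without overlap CD14, COL1A1, KRT8 and KRT18 passed the filter, and none was differentially expressed. PECAM1, VWF, PDGFRB, CSF1R and ITGAM are named after their values were seen. The part of these markers in the results below was not tested.

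Replicate 3 of each vector stood apart from the other replicates. In RBMX total replicate 3 the 22 interferon-stimulated genes listed for comparison had 7.69% to 64.1% of the mean of replicates 1 and 2, with a median of 27.6%, while the HEK293 markers had a median of 102% and RBMX had 76.8%. In control total replicate 3 the median was 56.2% for the interferon-stimulated genes and 61.0% for the HEK293 markers. The intermediate filament gene VIM, for example, had 248 FPKM there against 522 and 549. Results are therefore given with all libraries, without RBMX replicate 3, and without replicate 3 of both vectors, the last of which was chosen after seeing the data.

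None of the 9 genes was differentially expressed upon RBMX overexpression with all libraries, in total or in polysomal RNA. The background was low, with 24 of all 14676 genes (0.164%) passing the threshold in the comparison of total RNA and 7 (0.0477%) in that of polysomal RNA. CXCL10, CXCL11 and ICAM1 passed the filter only where they were high, so that they had to be higher in RBMX cells, and they are left out of the following counts. At an unadjusted limma p under 0.05, 5 of the other 6 genes were higher in total RNA, against 7.5% of the 14469 genes that averaged 0.5 FPKM or more in control cells, and 5 of the 6 in polysomal RNA, against 4.73%. The 3 RBMX libraries lay above all 3 control libraries for 4 of the 6 in total RNA (11.5% of these genes) and for 5 of the 6 in polysomal RNA (9.64%). The median log2 fold change of the 6 was 0.43 in total and 0.37 in polysomal RNA, where that of all genes tested was 0.00. A two-sided exact permutation test of 3 against 3 libraries cannot give less than p = 0.1, the value of every gene whose groups did not overlap. In these bulk libraries a change in the share of cells that express a gene and a change in its level per cell cannot be told apart.

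**Figure D1:**
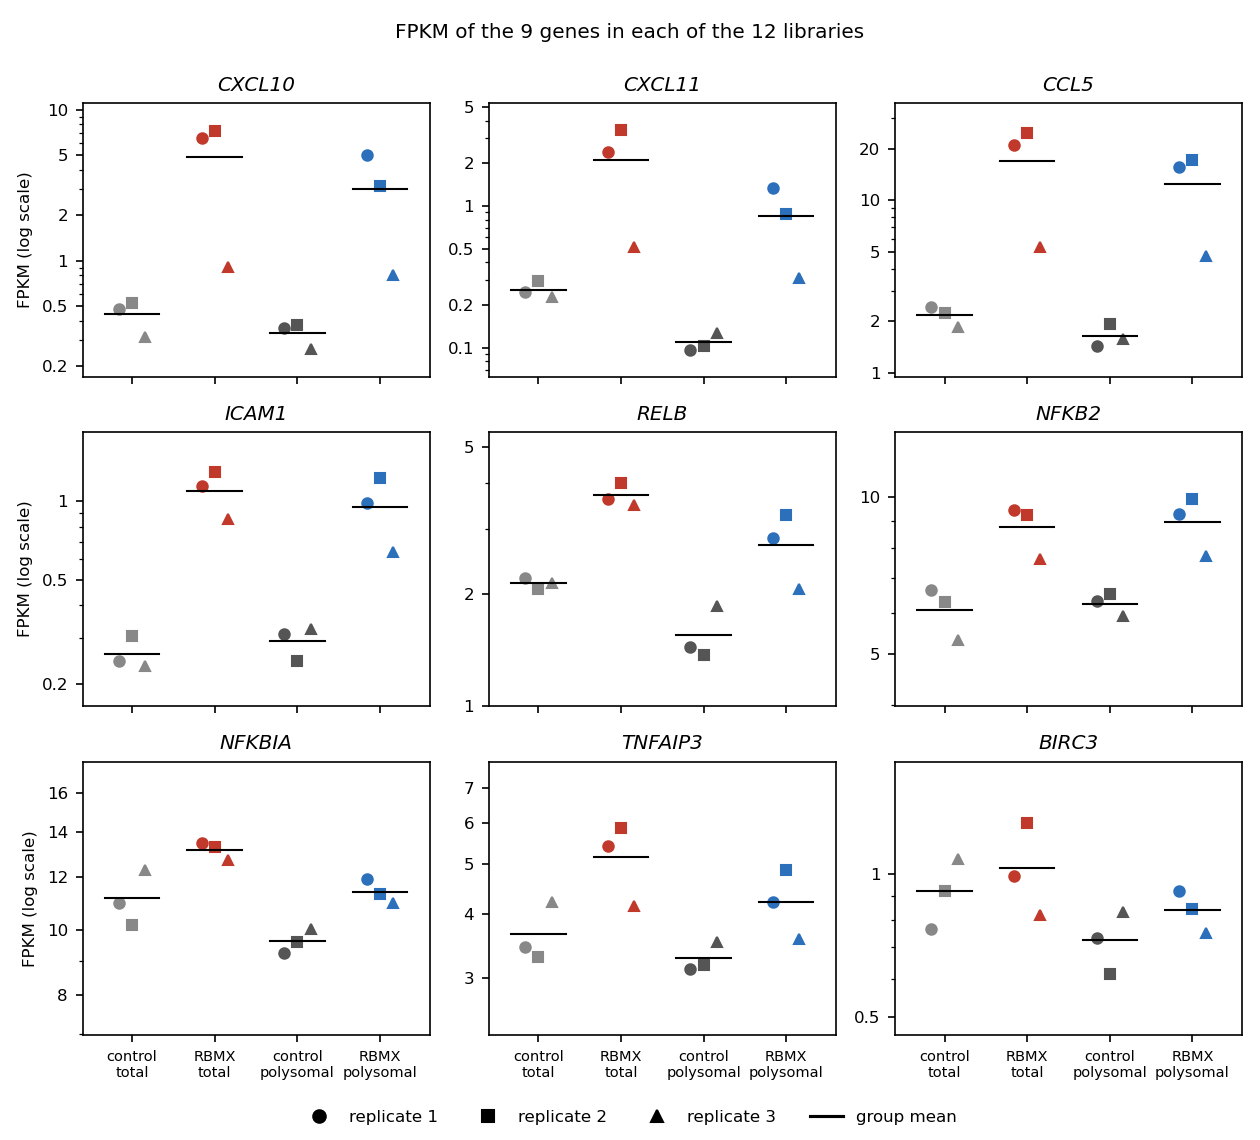
FPKM (log scale) of each of the 9 genes in the 12 libraries, with 1 panel per gene, 1 point per library (circle, square and triangle for replicates 1, 2 and 3) and a line at each group mean. The RBMX triangles of CXCL10, CXCL11 and CCL5 lie far below the circles and squares of the same group but above all control points, whereas the points of BIRC3 overlap between vectors.

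The 3 chemokines had the highest ratios of the 9 genes. CXCL10 and CXCL11, neighbours on chromosome 4 (chr4:76021117-76023497 and chr4:76033682-76041415, minus strand, GRCh38), encode ligands of the receptor CXCR3 on activated T cells. CXCL10 had 0.481, 0.529 and 0.314 FPKM in control total RNA and 6.55, 7.22 and 0.905 in RBMX total RNA. In polysomal RNA it had 0.359, 0.377 and 0.262 FPKM in control cells and 5.00, 3.11 and 0.805 in RBMX cells. The groups did not overlap in either fraction, and RBMX replicate 3 was the lowest of its group in both. The ratio of means was 11.1 in total RNA (log2 fold change 1.77, standard error 0.58, 95% interval 0.31 to 3.23, limma adjusted p = 0.215). In polysomal RNA it was 8.93 (log2 fold change 1.41, standard error 0.44, limma adjusted p = 0.400).

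CXCL11 was lower in level but had the same order of libraries in total RNA. It had 0.246, 0.295 and 0.227 FPKM in control total RNA and 2.40, 3.42 and 0.518 in RBMX total RNA, with a ratio of means of 8.24 (log2 fold change 1.17, standard error 0.40, limma adjusted p = 0.220). Its polysomal level was 0.0971, 0.103 and 0.126 FPKM in control cells and 1.33, 0.884 and 0.312 in RBMX cells, a ratio of 7.74 (log2 fold change 0.69, standard error 0.21, limma adjusted p = 0.400). The groups again did not overlap. ART3, which lies over both genes on the opposite strand, had at most 0.0297 FPKM in any library.

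CCL5 (chr17:35871491-35880793, minus strand) encodes a chemokine that attracts T cells and monocytes, and it was the most abundant of the 3 chemokines. It had 2.42, 2.24 and 1.84 FPKM in control total RNA and 20.9, 24.5 and 5.36 in RBMX total RNA. The corresponding polysomal values were 1.42, 1.93 and 1.56 FPKM in control cells and 15.6, 17.2 and 4.73 in RBMX cells. The lowest RBMX library, replicate 3, was 2.22 times the highest control library in total RNA and 2.45 times in polysomal RNA. The ratio of means was 7.82 in total RNA (log2 fold change 2.27, standard error 0.54, 95% interval 0.92 to 3.63, limma adjusted p = 0.176) and 7.62 in polysomal RNA (log2 fold change 2.19, standard error 0.46, limma adjusted p = 0.400). By log2 fold change CCL5 ranked 156 of 14676 in total RNA and 137 in the polysomal comparison.

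CXCR3, the receptor of CXCL10 and CXCL11, had at most 0.0262 FPKM in any library and was chosen for mention after its values were seen. Of 8 receptors listed, including the integrin chains that bind ICAM1, only CXCR4 passed the filter. Without overlap, 2 of the 8 were higher and 0 lower in each fraction. Of all symbols, 10.5% were higher in total and 8.71% in polysomal RNA. The receptors were ITGAL in both fractions (ratios of means 6.90 and 4.65), CCR1 in total RNA and ITGB2 in polysomal RNA. They are named after their values were seen and lay below the filter, ITGAL with at most 0.332 FPKM. CXCR4 had 21.4 ± 4.39 FPKM (SD, n = 3) in control and 24.8 ± 0.699 FPKM (SD, n = 3) in RBMX total libraries, and the groups overlapped.

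ICAM1 (chr19:10270835-10286615, plus strand) encodes the cell surface protein that leukocyte integrins hold on to. It had 0.245, 0.306 and 0.234 FPKM in control total RNA and 1.14, 1.29 and 0.855 in RBMX total RNA. Its polysomal level was 0.311, 0.246 and 0.325 FPKM in control cells and 0.983, 1.22 and 0.641 in RBMX cells. Every RBMX library lay above every control library, and here RBMX total replicate 3 had 70.2% of the mean of replicates 1 and 2. The ratio of means was 4.19 in total RNA (log2 fold change 0.73, standard error 0.085, limma adjusted p = 0.0869) and 3.23 in polysomal RNA (log2 fold change 0.58, standard error 0.11, limma adjusted p = 0.400). ICAM1 passed the threshold in total RNA under 5 of 15 alternatives (limma adjusted p from 0.00752 to 0.401). Annotated antisense genes overlap ICAM1, TNFAIP3 and CCL5, and whether the counting used the strand is not given in the sources used here.

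RELB (chr19:45001430-45038198, plus strand) and NFKB2 (chr10:102394110-102402529, plus strand) encode the partners of the noncanonical NF-kB dimer, NFKB2 as a precursor that also acts as an inhibitor. RELB had 2.21, 2.07 and 2.14 FPKM in control total RNA and 3.62, 4.00 and 3.49 in RBMX total RNA. The ratio of means was 1.73 (log2 fold change 0.58, standard error 0.061, 95% interval 0.43 to 0.73, limma adjusted p = 0.0610), which put RELB at rank 28 of 14676 by p-value, the first of the 9 genes. In polysomal RNA it had 1.44, 1.37 and 1.86 FPKM in control cells and 2.83, 3.27 and 2.06 in RBMX cells, a ratio of 1.75 (log2 fold change 0.53, standard error 0.15, limma adjusted p = 0.400). Here the highest control and the lowest RBMX library, both replicate 3, were 1.11-fold apart.

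NFKB2 had 6.65, 6.29 and 5.33 FPKM in control total RNA and 9.44, 9.25 and 7.63 in RBMX total RNA. Its polysomal level was almost the same as its total level, with 6.31, 6.51 and 5.91 FPKM in control cells and 9.29, 9.94 and 7.73 in RBMX cells. The groups did not overlap in either fraction, and replicate 3 was the lowest library of every group. The ratio of means was 1.44 in both fractions, with a log2 fold change of 0.46 in each (standard error 0.11 in each, limma adjusted p = 0.176 in total and 0.400 in polysomal RNA).

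The inhibitory and ubiquitin-related genes had the smallest ratios. NFKBIA (chr14:35401511-35404749, minus strand), which encodes the classical inhibitor protein of NF-kB, was the most abundant of the 9 genes in control cells. It had 11.0, 10.2 and 12.3 FPKM in control total RNA and 13.5, 13.3 and 12.7 in RBMX total RNA, a ratio of 1.18 without overlap (log2 fold change 0.22, standard error 0.080, limma adjusted p = 0.237). Its polysomal level was 9.24, 9.61 and 10.0 FPKM in control cells and 11.9, 11.3 and 11.0 in RBMX cells, a ratio of 1.19 (log2 fold change 0.22, standard error 0.069, limma adjusted p = 0.400).

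TNFAIP3 (chr6:137867188-137883312, plus strand) encodes a ubiquitin-editing enzyme that ends NF-kB signalling. It had 3.44, 3.30 and 4.21 FPKM in control total RNA and 5.40, 5.87 and 4.15 in RBMX total RNA. The groups overlapped through replicate 3 of both vectors, which was the highest control and the lowest RBMX library. The ratio was 1.41 in total RNA (log2 fold change 0.39, standard error 0.14, limma adjusted p = 0.228). The polysomal ratio was 1.28 (log2 fold change 0.28, standard error 0.11, limma adjusted p = 0.421), and the RBMX libraries, from 3.58 to 4.85 FPKM, lay above the control libraries, from 3.13 to 3.53.

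BIRC3 (chr11:102317450-102339403, plus strand) encodes a ubiquitin ligase that acts at tumour necrosis factor receptors, and its groups overlapped in both fractions. It had 0.765, 0.921 and 1.08 FPKM in control total RNA and 0.991, 1.28 and 0.819 in RBMX total RNA. Its polysomal level was 0.733, 0.617 and 0.832 FPKM in control cells and 0.921, 0.845 and 0.750 in RBMX cells. The log2 fold change was 0.077 in total RNA (95% interval -0.18 to 0.34, limma adjusted p = 0.714) and 0.091 in polysomal RNA (95% interval -0.069 to 0.25, limma adjusted p = 0.575). Without RBMX total replicate 2 the value in total RNA was -0.010.

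**Figure D2:**
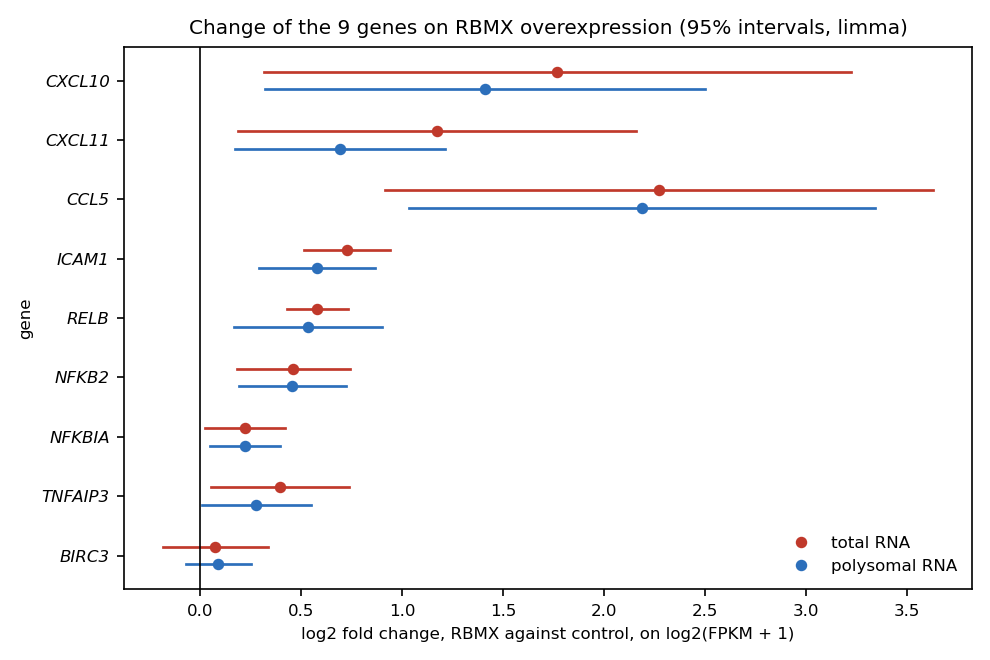
Log2 fold change of each gene, RBMX against control on log2(FPKM + 1), with limma 95% intervals for total RNA (red) and polysomal RNA (blue). The points run from 2.27 for CCL5 to 0.077 for BIRC3 in total RNA, and in both fractions only the intervals of BIRC3 cross 0, although no gene passed the threshold after adjustment.

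The order of the levels differed between vectors. In control total RNA the mean FPKM ran from NFKBIA (11.2) through NFKB2 (6.09), TNFAIP3 (3.65), CCL5 (2.16), RELB (2.14), BIRC3 (0.921), CXCL10 (0.441) and ICAM1 (0.262) to CXCL11 (0.256). The libraries of CCL5 and RELB overlapped, as did those of ICAM1 and CXCL11, so neighbours in these pairs did not differ beyond their spread. In RBMX total RNA CCL5 came first with a mean of 16.9 FPKM, ahead of NFKBIA (13.2), NFKB2 (8.77), TNFAIP3 (5.14), CXCL10 (4.89), RELB (3.70), CXCL11 (2.11), ICAM1 (1.10) and BIRC3 (1.03). CCL5 and CXCL10 had libraries from 5.36 to 24.5 and from 0.905 to 7.22 FPKM there, so their places were not separated from those of their neighbours. CXCL11, ICAM1 and BIRC3 also overlapped there, whereas NFKBIA, NFKB2 and TNFAIP3 did not overlap each other.

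Which genes passed the threshold depended on replicate 3. RBMX total replicates 1 and 2 were 14.8 and 16.4 times the control mean for CXCL10, and replicate 3 was 2.05 times. For CXCL11 these ratios were 9.35, 13.4 and 2.02, and for CCL5 they were 9.67, 11.3 and 2.47. The same library was closer to the others for ICAM1 (4.37, 4.94 and 3.27), RELB (1.69, 1.87 and 1.63) and NFKB2 (1.55, 1.52 and 1.25). In polysomal RNA replicate 3 was 2.42, 2.86 and 2.89 times the control mean for CXCL10, CXCL11 and CCL5, against 8.12 to 15.0 times in the other replicates. In total RNA RBMX itself was 10.9 times its control mean in replicate 3 and up to 15.5 times in the others, so the library that had the lowest chemokine levels also had the lowest RBMX level of the 3, by a smaller margin.

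RBMX replicate 3 was the RBMX library with the lowest level of each of the 9 genes in both fractions, so leaving it out raised the RBMX mean of each. Without RBMX total replicate 3, 178 genes passed in total RNA. Of the 6 genes whose control level alone met the filter CCL5 and RELB were among them, and so were CXCL10, CXCL11 and ICAM1, which had entered the test through the RBMX libraries. The log2 fold change was then 2.91 for CCL5 (limma adjusted p = 0.00249), 0.61 for RELB (limma adjusted p = 0.0390), 2.45 for CXCL10 (limma adjusted p = 0.00162), 1.63 for CXCL11 (limma adjusted p = 0.0162) and 0.81 for ICAM1 (limma adjusted p = 0.00752). Without RBMX polysomal replicate 3, 126 genes passed in polysomal RNA, among them CXCL10 (1.90, limma adjusted p = 0.0336), CCL5 (2.72, limma adjusted p = 0.00410) and ICAM1 (0.70, limma adjusted p = 0.0336). Over all alternatives the limma adjusted p in total RNA ran from 0.00162 to 0.572 for CXCL10, from 0.0162 to 0.572 for CXCL11, from 0.00249 to 0.539 for CCL5 and from 0.0390 to 0.304 for RELB. In polysomal RNA it ran from 0.0336 to 0.799 for CXCL10, from 0.00410 to 0.799 for CCL5 and from 0.0336 to 0.799 for ICAM1.

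Leaving out replicate 3 of both vectors, so that 2 libraries stood against 2, gave ratios of means of 13.6 for CXCL10, 10.7 for CXCL11, 9.76 for CCL5 and 4.42 for ICAM1 in total RNA. All 4 passed the threshold there, and RELB did not (limma adjusted p = 0.0546). CXCL10, CXCL11 and ICAM1 had entered the test only through the RBMX libraries. With this setting many more of all genes passed in both fractions than with all libraries, as counted in the last section. In polysomal RNA the ratios were 11.0, 11.0, 9.76 and 3.97, and the genes past the threshold were CCL5 (limma adjusted p = 0.0142) and RELB (limma adjusted p = 0.0491, over all alternatives to 0.799). NFKB2, NFKBIA, TNFAIP3 and BIRC3 passed in neither fraction with or without replicate 3. The part of replicate 3, its RBMX level or its HEK293 marker levels in these values was not tested.

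**Figure D3:**
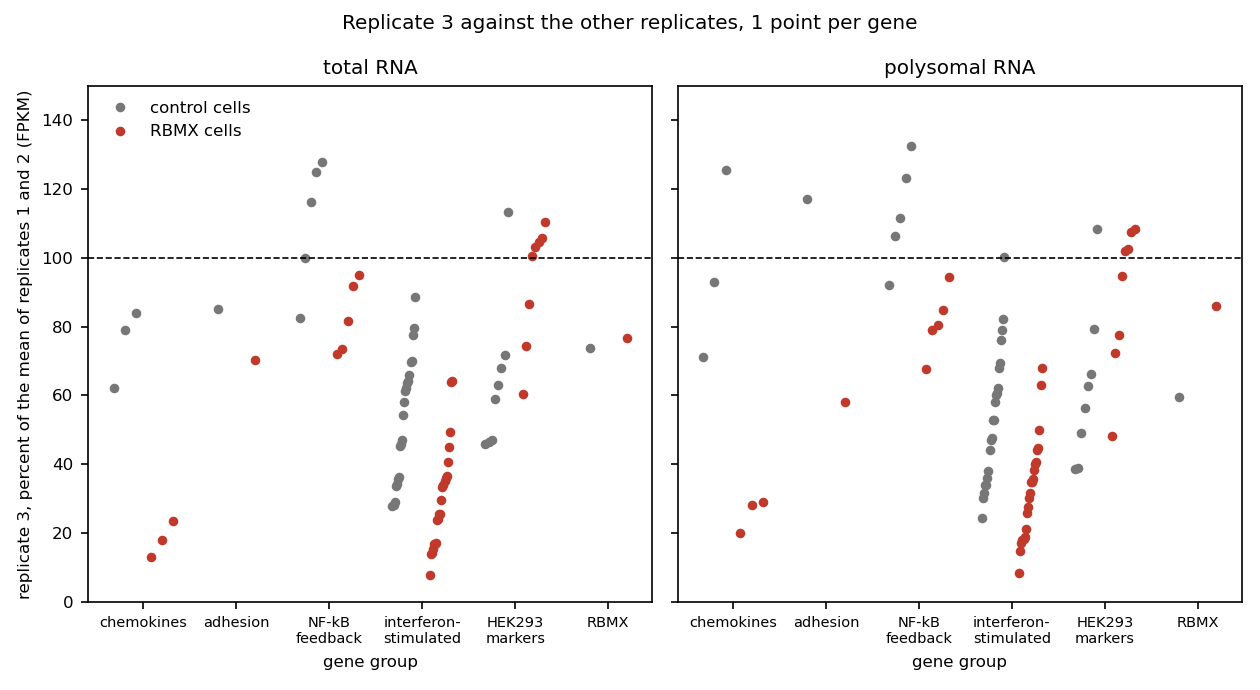
FPKM of replicate 3 as a percentage of the mean of replicates 1 and 2 of the same group, 1 point per gene, for the chemokines, ICAM1 (adhesion), the 5 NF-kB feedback genes, the 22 interferon-stimulated genes, the HEK293 markers and RBMX, in control (grey) and RBMX (red) cells. In RBMX total RNA the chemokines lie between 13.1% and 23.6% and the feedback genes between 72.1% and 94.9%, and the dashed line marks 100%.

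Whether the effect of RBMX overexpression differed between polysomal and total RNA was tested as an interaction in a fit of the 12 libraries, where a negative value means a smaller effect in polysomal RNA. None of the 9 genes passed, where 3 of all genes did (0.0204%), and none had an unadjusted limma p under 0.05, where 0.6% of all genes did. The difference ran from -0.48 for CXCL11 to 0.014 for BIRC3, with a limma adjusted p of 1.00 for each gene. Its 95% interval was wide for the chemokines, from -2.10 to 1.38 for CXCL10, from -1.55 to 0.59 for CXCL11 and from -1.78 to 1.62 for CCL5. It was narrower for NFKBIA, from -0.22 to 0.22, and for NFKB2, from -0.35 to 0.34. This fit did not pair the polysomal and total RNA of a culture, so its intervals also hold the spread between cultures. In this unpaired fit the intervals of CXCL10 and CCL5 reach beyond 1 log2 unit in either direction.

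In control cells the polysomal level of each mRNA relative to its total level could be described without the RBMX plasmid. FPKM is scaled within each library, so this ratio is not the share of an mRNA that sits in polysomes. Polysomal levels were below total levels for 7 of the 9 genes, none differentially (12 of all genes, 0.0818%, passed). CXCL11 had the lowest polysomal level relative to total RNA, with ratios of 0.395, 0.351 and 0.555 in control cultures 1 to 3. Its polysomal libraries lay below its total libraries (log2 fold change -0.18, standard error 0.032, limma adjusted p = 0.424). RELB had a ratio of means of 0.726 and NFKBIA of 0.863, both likewise without overlap. Non-overlap in this direction held for these 3 of the 9 genes and for 7.31% of all genes, and an unadjusted limma p under 0.05 for 2 of the 9, CXCL11 and RELB, and for 4.84% of all genes. With the polysomal and total RNA of each culture paired, the limma adjusted p was 0.173 for CXCL11 and 0.197 for RELB, and 6 genes passed in place of 12. NFKB2 and ICAM1 had ratios of means of 1.03 and 1.12.

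In RBMX cells the polysomal to total ratio was 0.556, 0.259 and 0.603 for CXCL11 in cultures 1 to 3 and 0.763, 0.432 and 0.890 for CXCL10. Culture 2 was thus the lowest for both. For CXCL10 culture 2 lay below the control range of 0.713 to 0.835 and culture 3 above it. For CXCL11 culture 2 lay below the control range of 0.351 to 0.555, culture 3 above it and culture 1 barely above it. For CCL5 the ratio was 0.744, 0.701 and 0.884 in RBMX cells against 0.589, 0.863 and 0.849 in control cells, so the vectors overlapped. NFKB2 stayed near 1 in every culture, from 0.950 to 1.11 in control and from 0.985 to 1.08 in RBMX cells. RBMX mRNA itself had ratios of 0.674, 0.640 and 0.734 in RBMX cells and of 0.991, 1.02 and 0.810 in control cells.

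**Figure D4:**
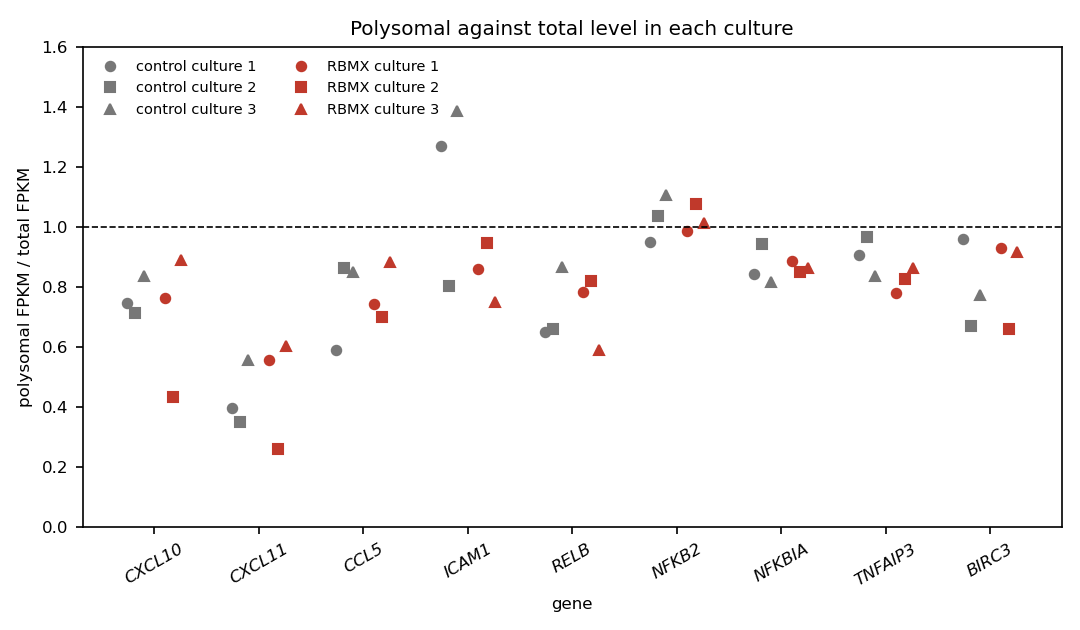
Ratio of polysomal to total FPKM of the 9 genes in each of the 6 cultures, grey for control and red for RBMX cells, with the circle, square and triangle marking cultures 1, 2 and 3 and the dashed line equal levels. CXCL11 lies lowest, between 0.259 and 0.603, NFKB2 lies between 0.950 and 1.11, and the ranges of control and RBMX cultures overlap for every gene.

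Of 16 further chemokine genes, most of them at low levels, 8 were higher and 1 lower without overlap in RBMX total libraries, against 10.5% and 10.1% of all 25268 symbols. In polysomal RNA 7 were higher and 1 lower, against 8.71% and 8.38%. The 6 that passed the filter held 3 of those higher and the lower one in each fraction, and none was differentially expressed. At an unadjusted limma p under 0.05, 3 of these 6 were higher and 1 lower in total RNA, against 7.93% and 10.8% of all genes tested. In polysomal RNA 2 were higher and 1 lower, against 5.16% and 6.53%. CXCL1 is among those higher in both fractions. It had means of 0.506 FPKM in control total and 0.296 in control polysomal RNA. The control libraries together thus averaged below 0.5 FPKM for CXCL1, which passed the filter only through the RBMX libraries and had to be higher. Below the filter CCL4, named after its values were seen, had 0.139, 0.199 and 0.301 FPKM in control and 0.565, 0.833 and 0.445 in RBMX total libraries, and its reads may be shared with a near-identical copy. CXCL8, a neutrophil attractant and NF-kB target, had 1.63 ± 0.152 FPKM (SD, n = 3) in control and 7.76, 11.8 and 3.75 in RBMX total libraries (log2 fold change 1.62, limma adjusted p = 0.174). CXCL1 and CXCL16 were also higher without overlap, by 0.42 and 0.18 on the log2 scale in total RNA. CXCL12, which is expressed by many tissues without stimulation, was lower without overlap in both fractions (-0.23 in total and -0.31 in polysomal RNA).

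Genes of the NF-kB signalling machinery had smaller values than the chemokines. Of 27 listed receptors, adaptors, kinases and subunits 26 were tested and none was differentially expressed. At an unadjusted limma p under 0.05, 7 were higher and 3 lower in total RNA, against 7.93% and 10.8% of all genes, so that the share that was lower was near the background. In polysomal RNA 4 were higher and 0 lower, against 5.16% and 6.53%. Their median log2 fold change was 0.098 in total and 0.097 in polysomal RNA. RBCK1, a subunit of the linear ubiquitin ligase complex, had the largest value (0.59 in total RNA, limma adjusted p = 0.192), and its partner RNF31 had 0.28 in polysomal RNA. The kinase gene MAP3K14, which drives the noncanonical pathway, had 0.27 and the receptor gene TNFRSF1A 0.26 in total RNA. RIPK1 had 0.37 in polysomal RNA, whereas MAP3K7 had -0.17 in total RNA and TAB3 -0.21 in polysomal RNA. None of the 11 other inhibitors tested was differentially expressed, and at an unadjusted limma p under 0.05 there was 1 in total and 0 in polysomal RNA, where 18.8% and 11.7% of all genes had such a p in either direction. They had a median of 0.040 in total and 0.069 in polysomal RNA, and NFKBIB, which encodes a relative of the NFKBIA protein, was the one without overlap (0.26 in total and 0.18 in polysomal RNA).

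Of 19 further NF-kB target genes 12 were tested and none was differentially expressed. In total RNA 5 were higher and 1 lower at an unadjusted limma p under 0.05, against 7.93% and 10.8% of all genes, and in polysomal RNA 4 were higher and 0 lower, against 5.16% and 6.53%. The median log2 fold change of the 12 was 0.15 in total and 0.093 in polysomal RNA. In total RNA 9 were above 0 and 3 below, and in polysomal RNA 8 were above and 4 below. CD83, named after its values were seen, was the lower one in total RNA (-0.19). IER3, an early response gene, had 43.0, 38.4 and 40.5 FPKM in control and 65.4, 65.4 and 59.3 in RBMX total libraries (log2 fold change 0.63, limma adjusted p = 0.0725). GADD45B, a stress response gene, had 0.58 on the log2 scale in total RNA (limma adjusted p = 0.170). IRF1, a transcription factor induced by interferons and NF-kB, had 1.18 and the growth factor gene CSF1 had 1.09 in total RNA. Their RBMX replicate 3 was again the lowest, with 5.49 FPKM against 10.8 and 11.4 for IRF1 and 7.24 against 13.6 and 13.1 for CSF1.

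The 22 interferon-stimulated genes were higher in RBMX libraries, as the chemokines were. None was differentially expressed by limma with all libraries. All 22 were higher without overlap in both fractions, against 11.9% of all genes tested in total and 10% in polysomal RNA. At an unadjusted limma p under 0.05, 22 were higher in total and 21 in polysomal RNA, against 7.93% and 5.16%. These counts include GBP1, which averaged 0.274 FPKM in control total and 0.270 in control polysomal RNA. GBP1 passed the filter only through the RBMX libraries, so it had to be higher. The 22 also include IFNB1 and IFNL1, which encode interferons themselves and are named after their values were seen. In total RNA IFNB1 had a mean of 0.968 FPKM in control and 14.8 in RBMX libraries. IFNL1 had 1.22 and 22.3. The median log2 fold change of the 22 was 2.25 in total and 2.16 in polysomal RNA. IFI6, IRF9, IFI44 and ISG15 had log2 fold changes of 2.12, 0.93, 2.60 and 2.10 in total RNA (limma adjusted p from 0.170 to 0.176). In polysomal RNA IFI6, CMPK2, IFI44 and OAS2 had 2.01, 2.33, 2.58 and 3.76. OAS2, for example, had 128, 143 and 19.2 FPKM in RBMX total libraries and 5.89, 7.26 and 2.39 in control total libraries.

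The 2 genes whose log2(FPKM + 1) over the 12 libraries was most like that of each of the 9 were also listed. Pearson correlations are given as a description, since the libraries of 1 culture share a lysate and the vectors form separate groups. CXCL10 was most like TNFSF10 (0.996) and CD274 (0.993), CXCL11 was most like NT5C3A (0.989) and FENDRR (0.976), and CCL5 was most like IFNL1 (0.995) and TRIM22 (0.993). NFKB2 was closest to USP18 (0.990) and APOL2 (0.989), and ICAM1 to IL4I1 (0.986) and TEKT2 (0.986). The other feedback genes had other neighbours, which were ZNF296 and CSRNP1 for RELB (0.963 and 0.962), AQP1 and SLFN12 for TNFAIP3 (0.961 and 0.955), RBM39 and KLF4 for NFKBIA (0.945 and 0.944), and FAM122C and ATF3 for BIRC3 (0.931 and 0.926). Among the 9 genes CXCL10 and CCL5 had the highest correlation (0.974), and BIRC3 and NFKB2 had the lowest (0.292).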

How the data were processed

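HEK293 cells with the RBMX or the mock empty vector were compared within total and within polysomal RNA, with 3 libraries per group. The authors deposited FPKM values, 1 per gene symbol and library. The submitters' processing notes name CASAVA 1.8, TopHat2 2.0.13, Cufflinks 2.2.1, Cuffnorm and hg19, whereas the study's methods describe hg38, other aligners and a comparison of counts, without naming the tool behind the FPKM values. Libraries were made with the TruSeq RNA Sample Prep Kit from 500 ng of RNA, and use of the strand is not given in the sources used here.

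From these values log2(FPKM + 1) was computed, and genes with a mean of at least 0.5 FPKM over the 12 libraries were tested in R 4.3.3 with limma 3.58.1 (lmFit, eBayes with trend, two-sided, Benjamini-Hochberg, threshold 0.05), on 6 libraries per fraction or on all 12 for the difference between fractions. Figures and sequence searches used Python 3.11.15, pandas 2.3.3 and matplotlib 3.10.9. Count models were not applied, because the values are not counts. Depth is unknown. Among genes up to 0.05 FPKM only 11.5% to 23.5% shared 1 step within 0.05 on the log2 scale, so whole reads were not recovered. P-values measure the spread between the cultures of each vector. Columns matched the labels by name, and 0 were left unmatched. The fits were also run on simulated data with independent noise in each library. These had no outlying replicate and no pairing of fractions, so they cannot show how the fits deal with either. Gene positions came from a GENCODE annotation of GRCh38 and carry no values of the libraries.

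The 9 genes and all gene lists were chosen with earlier results of these data known. Named genes are RBMX, the 9 genes, and in each other list and vector comparison the genes past the threshold plus up to 4 with the smallest unadjusted p among those without overlap, and for each of the 9 the 2 genes with the highest Pearson correlation over the libraries. Total and polysomal RNA of 1 culture come from the same gradient, which pairs them. Across genes other than small RNA genes, the correlation of the paired libraries' deviations from their group means was 0.605, 0.686 and 0.835 in control cultures 1 to 3 and was 0.222, 0.0198 and 0.654 in RBMX cultures 1 to 3. Alternatives were a pseudocount of 0.1, a minimum of 0.1 or 1 FPKM or none, median-ratio or quantile scaling, no trend, a block for the replicate or culture, 1 fit of the 12 libraries together, and each library left out. The median-ratio factors ran only from 0.983 to 1.02, so that scaling could change little. Leaving out replicate 3 of both vectors was added after seeing the data. One result is not reported here.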

Additional observations from a re-analysis of the deposited data

How the results depend on the processing

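Of the values of the 9 genes under the alternatives, 127 of 141 in total RNA and 136 of 141 in polysomal RNA kept their direction and side of the threshold, and 13 and 5 passed it in addition. The number of genes past the threshold was 24 in total and 7 in polysomal RNA, and became 62 and 14 with a minimum mean FPKM of 0.1, 77 and 31 with no filter, 60 and 22 with the 12 libraries fitted together, and 306 and 348 without replicate 3 of both vectors. With each library left out in turn it ranged from 19 to 178 and from 9 to 126. With the replicate number as a block it was 13 and 3. RBMX in polysomal RNA (limma adjusted p = 0.0415) no longer passed under 5 of 16 alternatives, with the block (0.136) and without control replicate 1 or 2 or RBMX replicate 1 or 2 (0.115 to 0.213). No label says whether RBMX and control samples of the same number share more than that number. Their deviations correlated with 0.340, -0.041 and 0.023 in total and -0.17, -0.0056 and 0.068 in polysomal RNA. These values cannot decide it, since even the paired fractions of RBMX culture 2 correlated with only 0.0198. For the difference between fractions the count of 3 became 5 with the culture as a block, 14 without replicate 3 of both vectors, and 3 to 7 with each library left out. For polysomal against total RNA in control cells the count of 12 became 6 with the culture as a block and 12 to 26 with each library left out. ICAM1 in total RNA passed with a pseudocount of 0.1 (limma adjusted p = 0.0469), with a minimum of 0.1 FPKM (0.0489, RELB 0.0455) and with the 12 libraries fitted together (0.0278). With a minimum of 1 FPKM, CXCL11, ICAM1 and BIRC3 were not tested. Signs turned mainly for differences between fractions near 0, in 29 of 186 values, none past the threshold. CCL5 became 0.014 with a pseudocount of 0.1, NFKB2 0.0051 with median-ratio scaling, and NFKBIA -0.016 and RBMX 0.28 with quantile normalization. Without replicate 3 of both vectors NFKBIA was -0.038, BIRC3 -0.041, RELB 0.14 and NFKB2 0.048. With each library left out the difference ranged from -0.067 to 0.058 for NFKBIA, -0.062 to 0.10 for BIRC3, -0.091 to 0.090 for NFKB2, -0.15 to 0.088 for RELB, -0.72 to 0.45 for CCL5 and -1.04 to 0.13 for CXCL10, and in control cells polysomal against total RNA from -0.044 to 0.091 for NFKB2 and -0.24 to 0.15 for RBMX. BIRC3 in total RNA ranged from -0.010 to 0.21 with libraries left out. The causes were not tested. The unknown depth limits what can be said of CXCL11, CXCL10 and ICAM1 in control cells.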
